A study of Homo sapiens with 15 samples.

Results

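The transcriptomes of 10 xenograft tumors were compared, 5 grown in mice from HuCC-A1 cells and 5 from HuCC-T1 cells, out of 15 such cell line-derived xenografts (CDX) in the series. Both are human cell lines of intrahepatic cholangiocarcinoma (CCA), the cancer of the bile ducts within the liver. The tumors grew in immunodeficient NRG mice (non-obese diabetic Rag1-/- IL2Rgc-/-), which lack mature T, B and NK cells, and every mouse received the vehicle phosphate-buffered saline (PBS) and no antibody. In the HuCC-A1 model PBS was given into the peritoneum weekly for 6 weeks, and no duration is given for the HuCC-T1 model. The other 5 tumors of the series, from the extrahepatic line EGI-1 with 4 weeks of vehicle, entered the filter, the scaling and the estimate of spread. All genes that passed a filter on low counts were compared, which left 21019 of 58735 annotated genes. Each model is 1 cell line. Error therefore refers to variation among tumors from the same cells, and a difference between the models cannot be told apart from any difference in duration, passage or handling.

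Bile duct epithelial cells, or cholangiocytes, are simple epithelial cells that carry keratins of simple epithelia such as KRT7 and KRT19, modify bile with water and bicarbonate, and secrete mucins in the larger ducts. CCA cells may keep these traits, may adopt traits of squamous, gastric or mesenchymal cells, and take up programs such as Notch, Wnt and TGF-beta signaling, interferon response, hypoxia response and matrix remodeling. The comparison therefore asks which of these programs differ between 2 untreated models of the same anatomical subtype.

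Total counts per tumor ranged from 20001412 to 33585265 in HuCC-A1 and from 26163778 to 33984103 in HuCC-T1, and mitochondrial genes took 4.505 to 11.3% and 5.97 to 8.36% of them. Across the genes tested, the correlation of log2 levels was 0.971 to 0.987 between HuCC-A1 tumors, 0.963 to 0.986 between HuCC-T1 tumors and 0.842 to 0.881 between the models. HuCC-T1 tumor 1 had the lowest mean correlation with its own model, 0.967. Keratins KRT7 and KRT19 and the epithelial adhesion molecule EPCAM were expressed in every tumor, while the summed level of 14 leukocyte markers was at most 55.7 CPM (the usual count scaled to library size) and that of 13 red cell and muscle markers at most 4.59 CPM. Of 14 hepatocyte markers the sum was 363 to 639 CPM in HuCC-A1 and 261 to 470 CPM in HuCC-T1, most of it SERPINA1, and albumin was near 0 in both. In bulk tumors, fewer cells of a type and less RNA per cell cannot be told apart.

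Most of the genes tested differed, in nearly equal numbers in each direction. With edgeR's quasi-likelihood test, 11841 of 21019 genes (56.3%) had an adjusted p under 0.05, here termed called, of which 6120 (29.1%) were higher and 5721 (27.2%) lower in HuCC-A1. At least a 2-fold difference was found for 7720 of the called genes (36.7% of those tested). The levels of the 5 HuCC-A1 tumors did not overlap those of the 5 HuCC-T1 tumors for 8154 genes (38.8%), of which 8060 were called. Over all genes the median log2 fold change was 0.05 and its median size 0.80, while 531 called genes were higher and 453 lower by at least 5 on the log2 scale. Protein-coding genes made up 4778 of the higher and 4354 of the lower genes, which was 61.4% of those tested, against 51.2% of long intergenic and 41.4% of antisense RNA genes. These shares are the background against which the groups of genes below were read. For groups of protein-coding genes, a share called near 61.4% is no more than that of protein-coding genes in general.

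**Figure D1:**
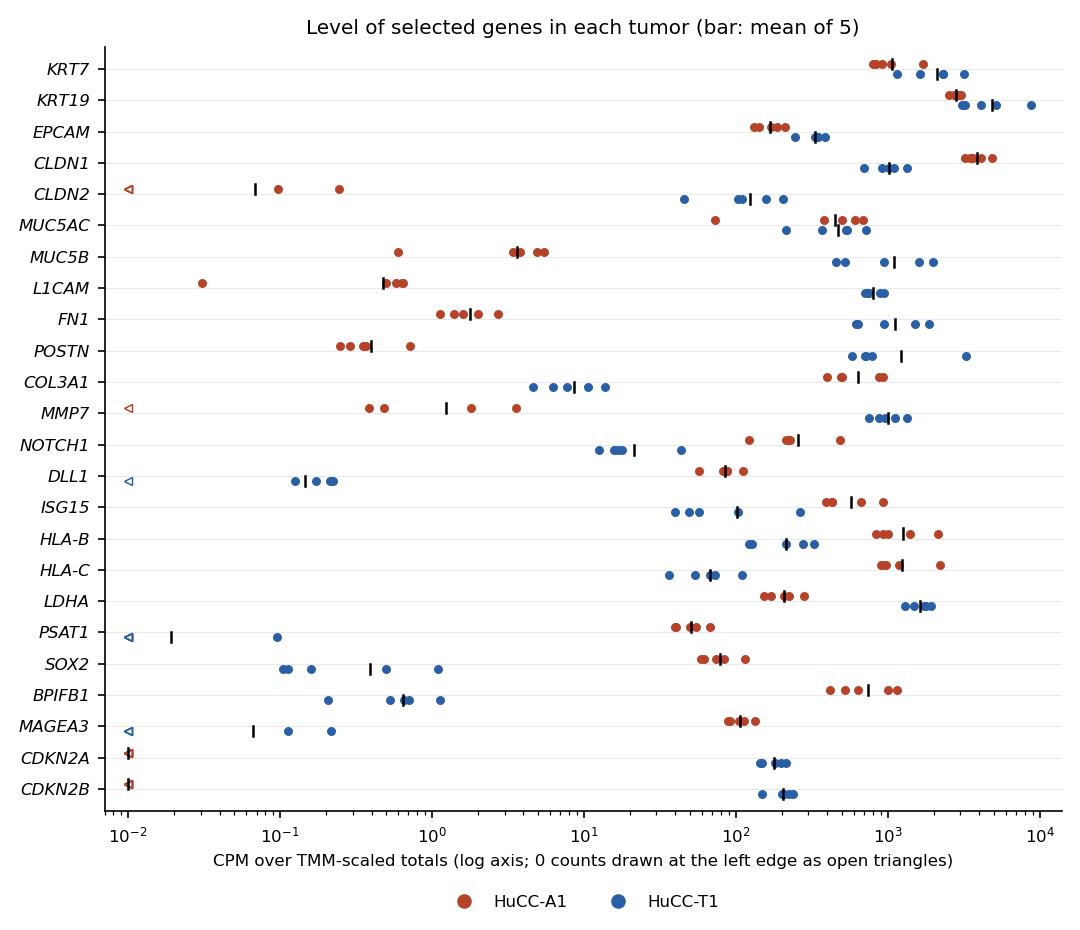
Each point is the level of a gene in 1 tumor, in CPM on a log axis, with red for HuCC-A1, blue for HuCC-T1 and a black bar for the mean of 5 tumors, and open triangles at the left edge mark tumors with 0 counts. KRT7 and MUC5AC overlapped between the models, whereas FN1, POSTN, L1CAM and MMP7 stood near 1 CPM or below in HuCC-A1 and far above it in HuCC-T1, and BPIFB1, SOX2, DLL1, PSAT1 and MAGEA3 showed the opposite order.

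Both models expressed biliary keratins, with higher means in HuCC-T1. Of 33 tested transcription factors of the hepatobiliary lineage, 14 were higher, 11 lower and 8 not called (75.8% called, against 61.4% of protein-coding genes). KRT19, the keratin most used to identify biliary cells, was at 2898, 3049, 2961, 2534 and 2708 CPM in the 5 HuCC-A1 tumors and at 8762, 3062, 3223, 5180 and 4122 CPM in the 5 HuCC-T1 tumors. KRT7 was at 1059 ± 371 CPM and 2109 ± 767 CPM (mean ± SD, n = 5 here and below), 1.99-fold lower in HuCC-A1 with overlap between the tumors (log2 fold change -0.99, SE 0.28, adjusted p = 0.00603, edgeR). EPCAM was lower in every HuCC-A1 tumor, at 168 against 330 CPM (adjusted p = 3.90e-05), and so was SOX9, a factor of biliary progenitors, at 43 against 138 CPM. The liver factor HNF4A was close to absent from HuCC-A1 tumors, at 0.46, 0.60, 0.746, 0.644 and 0.153 CPM against 14.4, 26.7, 19.4, 43.3 and 8.81 CPM in HuCC-T1 (43-fold lower, adjusted p = 6.02e-08). The pioneer factor FOXA1 ran the other way, with 94.2 CPM in HuCC-A1 and 1.63 CPM in HuCC-T1 (57.6-fold higher, adjusted p = 1.23e-10). Of 11 tested biliary markers, 2 were higher, 6 lower and 3 not called (median log2 fold change -0.78).

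Among genes of a list of cholangiocyte secretion, 7 of 25 tested were higher, 11 lower and 7 not called (72% called, against 61.4% of protein-coding genes). The calcium-activated chloride channel ANO1 was at 61.2, 108, 41.6, 69.5 and 66.3 CPM in HuCC-A1 and 1056, 1227, 965, 1165 and 781 CPM in HuCC-T1, without overlap (15-fold lower, adjusted p = 5.41e-10). The gamma-glutamyltransferase gene GGT1, whose product is a clinical marker of bile duct injury, averaged 1.42 and 32.1 CPM (adjusted p = 3.39e-09). In contrast, the efflux transporter ABCG2 was at 14 ± 4.68 CPM in HuCC-A1 and had 7 counts in all HuCC-T1 tumors together. ABCG2 was 273-fold higher, and 648-fold without HuCC-T1 tumor 5.

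Mucins split by gene. MUC5B, MUC6 and MUC16 were lower in HuCC-A1, while the gastric-type mucin MUC5AC and the membrane mucin MUC1 showed no called difference. MUC5B, a gel-forming mucin, measured 5.49, 0.60, 4.9, 3.77 and 3.41 CPM in HuCC-A1 and 1612, 458, 1982, 939 and 521 CPM in HuCC-T1, 299-fold apart (log2 fold change -8.23, SE 0.63, adjusted p = 9.76e-09). Its neighbor in the same gene cluster, MUC5AC, was at 450 ± 240 and 473 ± 190 CPM, with wide and overlapping ranges (adjusted p = 0.893). The gastric gland mucin MUC6 was at 1.52, 0.55, 3.33, 1.06 and 0.798 CPM in HuCC-A1 and 410, 209, 345, 127 and 140 CPM in HuCC-T1, 164-fold lower and 255-fold without HuCC-A1 tumor 3. MUC16, the carrier of the CA125 epitope, averaged 33.6 and 940 CPM (27.9-fold lower, adjusted p = 5.90e-08). The membrane mucin MUC4 was higher in HuCC-A1, at 71.4 against 4.4 CPM (adjusted p = 6.67e-06), 16.1-fold with all tumors and 25.8-fold without HuCC-T1 tumor 5. Over 16 tested mucins, 4 were higher, 3 lower and 9 not called (43.8% called, against 61.4% of protein-coding genes).

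Tight junction claudins also split. CLDN1, the claudin targeted in the study's antibody arms, was at 4126, 4820, 3202, 3645 and 3448 CPM in HuCC-A1 and 701, 1338, 1090, 1023 and 922 CPM in HuCC-T1. Every HuCC-A1 tumor thus exceeded every HuCC-T1 tumor, 3.79-fold on average (log2 fold change 1.92, SE 0.19, adjusted p = 2.20e-07). CLDN3 and CLDN4 were also higher, by 12.3-fold and 4.69-fold. The cation-conducting claudin CLDN2 was nearly confined to HuCC-T1 among these tumors, at 109, 103, 205, 158 and 45.7 CPM against 11 counts over the 5 HuCC-A1 tumors, 1610-fold lower and 4211-fold without HuCC-A1 tumor 5. Of 31 tested tight junction genes, 12 were higher, 11 lower and 8 not called, with a median log2 fold change of 0.08 (74.2% called, against 61.4% of protein-coding genes).

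Squamous and airway-type epithelial genes were present in both models in different combinations. The basal keratin KRT5 was at 2110, 1237, 2295, 2394 and 3015 CPM in HuCC-A1 and 892, 1229, 1181, 1123 and 5278 CPM in HuCC-T1. It was not called (adjusted p = 0.782), nor without HuCC-T1 tumor 5, where it was 1.98-fold higher (adjusted p = 0.0689). The basal factor TP63 averaged 155 and 106 CPM (adjusted p = 0.0856, and 0.0344 with limma-voom). SOX2, a stem cell factor of foregut and squamous epithelium, was at 83.9, 58.6, 114, 73.9 and 61.4 CPM in HuCC-A1 and 0.16, 0.104, 0.112, 0.494 and 1.09 CPM in HuCC-T1 (194-fold higher, adjusted p = 5.04e-08, and 351-fold without HuCC-T1 tumor 5). KRT4, a keratin of the esophagus, averaged 826 and 49.9 CPM, with HuCC-T1 tumor 1 at 157 CPM and the other HuCC-T1 tumors at 72.5 CPM or less. Its fold was 16.5 with all tumors and 34.3 without that tumor. KRT16, a keratin of wounded and hyperproliferative skin, was 26.6-fold lower in HuCC-A1 and 12.1-fold lower without HuCC-T1 tumor 5. Of 35 tested squamous genes, 15 were higher, 8 lower and 12 not called (65.7% called, against 61.4% of protein-coding genes, median log2 fold change 0.76).

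Secreted airway-type proteins differed widely and in both directions. BPIFB1, an antimicrobial protein of the airways, was at 1004, 413, 1146, 521 and 641 CPM in HuCC-A1 and 0.704, 0.207, 1.12, 0.53 and 0.654 CPM in HuCC-T1 (1156-fold higher, log2 fold change 10.18, SE 0.49, adjusted p = 3.99e-11). SCGB1A1, the secretoglobin of airway club cells, was at 338, 235, 874, 511 and 654 CPM and 1.73, 0.138, 0, 0.247 and 0.81 CPM, 862-fold higher and 1585-fold without HuCC-T1 tumor 1. SLPI, a protease inhibitor of mucosal secretions, averaged 680 and 37.4 CPM without overlap (18.2-fold, adjusted p = 5.65e-09). The airway mucin MUC5B, given above, was 299-fold lower in HuCC-A1, and WFDC2, another secreted protein of airway epithelium, was at 0.779, 0.050, 0.56, 0.0322 and 0.123 CPM in HuCC-A1 and 23.1, 6.5, 17.9, 6.14 and 18.6 CPM in HuCC-T1 (44.5-fold lower, adjusted p = 5.16e-07, and 67.2-fold without HuCC-A1 tumor 1).

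Most genes of a list of mesenchymal traits were higher in HuCC-T1. Of 49 tested genes of epithelial to mesenchymal transition (EMT), 30 were lower in HuCC-A1, 8 higher and 11 not called, with a median log2 fold change of -1.25. The share called was 77.6%, against 61.4% of protein-coding genes. Of 14876 protein-coding genes tested, 4354 were lower and 4778 higher. FN1 (fibronectin, chr2:215360440-215436172) was at 2.73, 1.4, 1.6, 1.13 and 1.99 CPM in HuCC-A1 and 639, 1503, 938, 613 and 1852 CPM in HuCC-T1. The difference was 624-fold (log2 fold change -9.29, SE 0.41, adjusted p = 1.22e-11), with 265 counts in all HuCC-A1 tumors together. POSTN, the matrix protein periostin, was at 0.248, 0.35, 0.72, 0.29 and 0.368 CPM and 3287, 708, 784, 721 and 580 CPM, 2963-fold lower in HuCC-A1 and 1771-fold lower without HuCC-T1 tumor 1. The mesenchymal cadherin CDH2 averaged 0.139 and 76.9 CPM, 482-fold lower and 789-fold without HuCC-A1 tumor 3. The neural adhesion molecule L1CAM, known from invasive fronts of carcinomas, was at 0.637, 0.50, 0.64, 0.58 and 0.0307 CPM in HuCC-A1 and 749, 745, 707, 938 and 882 CPM in HuCC-T1 (1677-fold lower, adjusted p = 1.99e-12).

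Abundant matrix and adhesion transcripts moved the same way with smaller folds. Tenascin C (TNC) averaged 26.6 and 1122 CPM, TGFBI 207 and 3238 CPM, thrombospondin 1 (THBS1) 337 and 3633 CPM, and the hyaluronan receptor CD44 297 and 2198 CPM, each lower in HuCC-A1 without overlap. Vimentin (VIM) was 4.02-fold lower, with 24.4% of its exonic bases also covered by genes on the opposite strand. The transcription factors of EMT did not share 1 direction. TWIST1 was at 15.8, 45.4, 20.3, 16.6 and 21.4 CPM in HuCC-A1 and 0.064, 0.138, 0, 0.0706 and 0.125 CPM in HuCC-T1 (281-fold higher, adjusted p = 2.24e-08), ZEB1 was lower at 3.59 against 8.55 CPM with overlap (adjusted p = 0.00425), and SNAI2 was not called (50.1 and 68.8 CPM, adjusted p = 0.185).

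Collagen genes differed by chain rather than as a family, with 14 of 38 tested collagen and laminin genes higher, 13 lower and 11 not called. Of the 38, 71.1% were called, against 61.4% of protein-coding genes. COL3A1, the type III chain, was at 500, 398, 488, 878 and 927 CPM in HuCC-A1 and 4.64, 10.6, 13.7, 7.7 and 6.23 CPM in HuCC-T1 (74.5-fold higher, adjusted p = 1.42e-07). COL1A1, the type I chain, was at 18.5, 10.8, 23.2, 17.7 and 17.6 CPM and 403, 484, 438, 85 and 465 CPM, 21.3-fold lower in HuCC-A1, so that the 2 fibrillar chains showed opposite orders. COL6A2, a chain of type VI collagen, had 3 counts over all HuCC-A1 tumors and 816, 620, 547, 699 and 988 CPM in HuCC-T1. Its count ratio was 37040-fold (95% interval 12680 to 179600) in favor of HuCC-T1, an interval that covers counting error only, and the fit gave an adjusted p of 4.23e-11. Its neighbor COL6A1 on chromosome 21 was also lower, at 9.57 against 499 CPM. The sum of 12 fibroblast markers, which include COL1A1, COL3A1 and POSTN, was 424 to 952 CPM in HuCC-A1 and 823 to 3722 CPM in HuCC-T1. The fibroblast markers PDGFRA, PDGFRB and THY1 averaged under 1 CPM in both models. Another marker of fibroblasts, FAP, averaged 0.82 CPM in HuCC-A1 and 9.77 CPM in HuCC-T1, without overlap (11.7-fold lower in HuCC-A1). Of the 10 fibroblast markers tested, 4 were higher in HuCC-A1, 5 lower and 1 not called. Whether mouse reads were removed before counting is not given in the sources used here, and the part of host stroma in these values was not tested.

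Integrins, the receptors by which cells bind this matrix, were mostly lower in HuCC-A1, with 12 of 19 tested lower, 3 higher and 4 not called (median log2 fold change -0.92). Among integrins 78.9% were called, against 61.4% of protein-coding genes. The subunit ITGAV was at 13.4, 16.4, 17.5, 21.2 and 18.3 CPM in HuCC-A1 and 228, 740, 570, 453 and 372 CPM in HuCC-T1 (27.2-fold lower, adjusted p = 4.61e-10). Its partners ITGB6 and ITGB5, which with it form receptors that activate TGF-beta, were 10.2-fold and 6.58-fold lower without overlap. ITGB6 shares 20.6% of its exonic bases with another annotated gene on the same strand. ITGB4, the laminin receptor subunit of hemidesmosomes, averaged 1083 and 2443 CPM (adjusted p = 1.34e-04).

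Matrix proteases and their inhibitors were divided, 26 of 43 tested being lower in HuCC-A1, 13 higher and 4 not called (median log2 fold change -1.23). Of them 90.7% were called, against 61.4% of protein-coding genes. MMP7 (matrilysin) was at 0, 1.8, 0.48, 0.386 and 3.56 CPM in HuCC-A1 and 754, 877, 1344, 1117 and 951 CPM in HuCC-T1, 815-fold lower and 1652-fold without HuCC-A1 tumor 5 (adjusted p = 7.35e-09). MMP1, MMP10 and MMP13, which cleave collagens and other matrix proteins, averaged 1.22, 1.39 and 1.6 CPM in HuCC-A1 and 870, 488 and 451 CPM in HuCC-T1. These 4 genes lie together on the long arm of chromosome 11, between YAP1 and ATM. In contrast, the membrane-bound protease MMP14 was higher in HuCC-A1, at 619, 1221, 637, 731 and 861 CPM against 160, 148, 139, 173 and 224 CPM (4.81-fold, adjusted p = 5.45e-08). The metalloprotease inhibitor TIMP3 was at 222, 254, 102, 227 and 71.6 CPM and 0.064, 0.173, 0.112, 0.282 and 0.28 CPM, 937-fold higher in HuCC-A1 (adjusted p = 2.85e-11).

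Notch pathway genes moved in both directions, 20 of 41 tested being higher in HuCC-A1, 10 lower and 11 not called (median log2 fold change 0.49). Of the Notch genes 73.2% were called, against 61.4% of protein-coding genes. In this pathway a ligand of the Delta or Jagged family on 1 cell releases the intracellular part of a receptor on the next, which joins RBPJ and a Mastermind protein to switch on genes of the HES and HEY families. NOTCH1 was at 224, 123, 214, 227 and 485 CPM in HuCC-A1 and 12.5, 17.8, 15.9, 16.9 and 43.4 CPM in HuCC-T1, 12-fold higher (log2 fold change 3.58, SE 0.38, adjusted p = 4.33e-07). NOTCH3 averaged 121 and 3.18 CPM, 37.8-fold higher and 77.4-fold without HuCC-T1 tumor 5. Within each model tumor 5 had the highest level of both receptors. The ligand DLL1 was at 56.8, 87.5, 87, 82.4 and 111 CPM in HuCC-A1 and 0, 0.173, 0.224, 0.212 and 0.125 CPM in HuCC-T1 (577-fold higher, adjusted p = 5.27e-11). Of the Jagged ligands, JAG2 was 4.71-fold higher and JAG1 was not called (459 and 418 CPM, adjusted p = 0.607).

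Several targets of Notch were higher. HES4 averaged 88.8 and 10.7 CPM and HES1 72.8 and 46.3 CPM, the latter a 1.57-fold difference without overlap (adjusted p = 0.00161). HEY1 was at 24.6, 9.35, 27.2, 14 and 35.3 CPM in HuCC-A1 and 0.032, 0.553, 0.187, 0.106 and 1.12 CPM in HuCC-T1, 54-fold higher and 98.4-fold without HuCC-T1 tumor 5. HEYL had 334 counts in HuCC-A1 and 0 in HuCC-T1, at least 106-fold higher against a floor of 3 counts over the group. The DNA-binding partner RBPJ was lower in HuCC-A1, at 46.8 against 141 CPM (adjusted p = 7.94e-07), as was the coactivator MAML2 at 23.8 against 151 CPM. The lowest fold change of the list was that of DTX3, a ubiquitin ligase of the Deltex family, with 2 counts over all HuCC-A1 tumors and 24.8, 14.9, 19.5, 19.5 and 25 CPM in HuCC-T1 (adjusted p = 2.37e-10). Its count ratio was 1562-fold (95% interval 432 to 12900), for counting error only. DTX4 of the same family was 4.52-fold lower in HuCC-A1, and NUMB, an inhibitor of Notch, 2.26-fold lower.

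Wnt genes were divided, with 16 of 47 tested higher, 16 lower and 15 not called (68.1% called, against 61.4% of protein-coding genes). RNF43, which removes Wnt receptors from the cell surface, was at 11.1, 11.2, 11.3, 9.08 and 9.3 CPM in HuCC-A1 and 0, 0.0692, 0, 0 and 0.0623 CPM in HuCC-T1 (335-fold higher, adjusted p = 1.03e-11). Of its exonic bases, 59.5% are shared with another annotated gene on the same strand, and how such reads were assigned is not given. The R-spondin receptor LGR6 was at 5.74, 3.6, 4.69, 6.73 and 7.46 CPM and 578, 224, 380, 432 and 328 CPM, 68.5-fold lower in HuCC-A1, and the stem cell receptor LGR5 had 0 counts in HuCC-A1 and averaged 2.27 CPM in HuCC-T1. The Wnt feedback genes AXIN2 and NKD1 were 19.8-fold and 16.9-fold lower in HuCC-A1 (adjusted p = 6.62e-09 and 6.02e-06), AXIN2 sharing 25.2% of its exonic bases with another gene on the same strand. The ligand WNT4 was 43.1-fold higher and the ligand WNT11 67.7-fold lower.

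Genes of TGF-beta and BMP signaling were mostly lower in HuCC-A1, with 24 of 46 tested lower, 10 higher and 12 not called (median log2 fold change -0.53). Of them 73.9% were called, against 61.4% of protein-coding genes. The receptor TGFBR2 was at 72.2, 98.7, 46, 50.2 and 55.9 CPM in HuCC-A1 and 247, 360, 317, 289 and 253 CPM in HuCC-T1, 4.54-fold lower (adjusted p = 1.16e-07). The feedback genes PMEPA1 and SMAD7, which the pathway induces, averaged 126 and 8.04 CPM in HuCC-A1 and 1873 and 41.1 CPM in HuCC-T1, neither with overlap. Among BMP ligands, BMP4 was 11.5-fold lower (adjusted p = 1.52e-08), while BMP7 averaged 27.3 CPM in HuCC-A1 and had 6 counts in HuCC-T1, all in tumor 3. BMP7 was 610-fold higher, and 7033-fold in the fit without that tumor, where HuCC-T1 was at 0.

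The main growth factor receptor of biliary cells and its STAT effector showed no called difference, while some ligands and cytokine receptors did. EGFR averaged 1037 and 834 CPM (adjusted p = 0.16) and STAT3 219 and 216 CPM (adjusted p = 0.928), both with overlapping tumors. The EGFR ligand HBEGF was at 292, 958, 164, 140 and 157 CPM in HuCC-A1 and 25, 21.4, 21.4, 32.2 and 56.3 CPM in HuCC-T1, 10.9-fold higher and 6.01-fold without HuCC-A1 tumor 2. In the IL-6 family, 11 of 25 tested genes were higher, 4 lower and 10 not called (60% called, against 61.4% of protein-coding genes). The receptors IL6R and LIFR were higher in HuCC-A1, at 39.8 and 48.2 CPM against 5.2 and 4.84 CPM. Of 17 tested genes of ERBB receptors and ligands, 6 were higher, 4 lower and 7 not called (58.8% called). The Hippo effector YAP1 was not called (323 and 301 CPM, adjusted p = 0.574), and 2 of its common targets split, CTGF being 14.7-fold lower and CYR61 3.37-fold higher in HuCC-A1. Over 28 tested Hippo genes, 8 were higher, 8 lower and 12 not called (57.1% called).

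Feedback genes and targets of ERK, the kinase at the end of the RAS pathway, were lower more often than higher, 12 against 5 of 27 tested with 10 not called (median log2 fold change -0.38). The share called, 63%, was near the 61.4% of protein-coding genes. The potassium channel KCNN4 averaged 11.2 and 127 CPM and the membrane protein EMP1 91.4 and 440 CPM, both lower without overlap. The phosphatase DUSP1, an immediate early gene, was higher, at 104 against 25.5 CPM. Eph receptors, which sense ephrins on neighboring cells, differed by gene. EPHA4 was 13.3-fold lower, EPHB6 was at 0.106, 0, 0.16, 0.129 and 0.307 CPM in HuCC-A1 and 91.8, 63.2, 85.2, 81.4 and 65 CPM in HuCC-T1 (498-fold lower, adjusted p = 2.86e-12), and the ephrin ligand EFNA1 was 2.63-fold higher. Of 19 tested Eph and ephrin genes, 8 were higher, 6 lower and 5 not called (73.7% called).

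Genes that p53 induces were higher in 15 of 33 cases, lower in 7 and not called in 11 (median log2 fold change 0.42). The share called was 66.7%, against 61.4% of protein-coding genes. The stress cytokine GDF15, also a target of ATF4, was at 130, 374, 195, 202 and 233 CPM in HuCC-A1 and 17.2, 9.34, 15.3, 15.3 and 7.16 CPM in HuCC-T1 (17.6-fold higher, adjusted p = 2.55e-08), and the antiproliferative gene BTG2 was 4.23-fold higher. The kinase PLK2 went the other way, 4.71-fold lower. Cell cycle genes were not called in 21 of 46 cases, with 15 higher and 10 lower (54.3% called). MCM7, part of the replicative helicase, averaged 275 and 122 CPM.

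Inflammatory and complement genes gave no single direction over the lists, with 14 higher, 11 lower and 17 not called of 42 for NF-kB and 9, 9 and 10 of 28 for complement. The shares called were 59.5% and 64.3%, against 61.4% of protein-coding genes. The leukocyte adhesion molecule ICAM1 was at 171, 362, 95.7, 151 and 124 CPM in HuCC-A1 and 9.4, 19.8, 23.8, 20.1 and 22.5 CPM in HuCC-T1 (9.45-fold higher, adjusted p = 3.15e-06), and the chemokine CCL5 was 62.9-fold higher and 127-fold without HuCC-T1 tumor 5. The chaperone clusterin (CLU) averaged 799 and 40.7 CPM and the complement-regulating protein CD55 268 and 50.7 CPM, both higher. The component C6 of the membrane attack complex was at 5.59, 1.95, 5.12, 3.54 and 0.307 CPM and 61.1, 105, 97.4, 255 and 15.5 CPM, 32.1-fold lower (adjusted p = 1.33e-05) and 21.3-fold lower without HuCC-T1 tumor 4.

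Surface antigens used as targets of antibodies differed in both directions, 13 higher, 11 lower and 12 not called of 36 (66.7% called, against 61.4% of protein-coding genes). CEACAM5, the carcinoembryonic antigen, was at 473, 138, 484, 860 and 874 CPM in HuCC-A1 and 35.9, 30.1, 76, 94.2 and 23 CPM in HuCC-T1 (10.9-fold higher, adjusted p = 1.31e-05). The glycoprotein GPNMB averaged 290 and 11 CPM (26.4-fold higher, adjusted p = 1.36e-06), and ERBB2, or HER2, 301 and 187 CPM with overlap (adjusted p = 0.00146). The nerve growth factor receptor NGFR was at 92, 106, 71.8, 67.7 and 114 CPM in HuCC-A1 and 0, 0.0346, 0.0748, 0.0353 and 0.0934 CPM in HuCC-T1. The tetraspanin CD81, a near-ubiquitous organizer of membrane proteins, was at 104, 126, 121, 94.4 and 131 CPM in HuCC-A1 and 0, 0.104, 0.0748, 0.0353 and 0.0623 CPM in HuCC-T1, 1977-fold higher (adjusted p = 1.68e-13), so that HuCC-T1 tumors had almost no transcript of it.

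Interferon-stimulated genes, the antiviral program that interferon receptors switch on through STAT and IRF factors, were higher in HuCC-A1 or not called, with 2 exceptions. Of 46 tested, 25 were higher, 2 lower and 19 not called (median log2 fold change 0.90). The share called, 58.7%, was near the 61.4% of protein-coding genes. Of 14876 protein-coding genes tested, 4778 were higher and 4354 lower. ISG15, a ubiquitin-like modifier, was at 663, 935, 392, 429 and 431 CPM in HuCC-A1 and 57.5, 39.9, 102, 49.2 and 263 CPM in HuCC-T1. Tumor 5 was the highest of the HuCC-T1 tumors and lay below every HuCC-A1 tumor. The fold was 5.57 (log2 fold change 2.48, SE 0.45, adjusted p = 1.61e-04) and 9.03 without that tumor. IFI6, a mitochondrial antiviral protein, was at 926, 1549, 649, 745 and 688 CPM and 80.8, 78, 202, 123 and 334 CPM (5.57-fold higher, adjusted p = 5.03e-05). HERC5, the ligase that attaches ISG15, was at 55.6, 64.5, 31.5, 46.6 and 38.6 CPM and 0.48, 0.0692, 0.86, 0.0353 and 0.965 CPM, 96.8-fold higher (adjusted p = 6.28e-09).

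The exceptions were EPSTI1 and IFITM2. IFITM2, whose sequence is close to that of IFITM1 and IFITM3, averaged 9.51 and 47.8 CPM (adjusted p = 1.00e-06). EPSTI1 was at 0.212, 1.15, 1.36, 0.805 and 1.29 CPM in HuCC-A1 and 29.1, 67.5, 124, 74.9 and 83 CPM in HuCC-T1, 77.7-fold lower (adjusted p = 1.56e-09), so that within the same program HERC5 was nearly silent in HuCC-T1 and EPSTI1 nearly silent in HuCC-A1.

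Interferon-responsive promoters hold a repeated GAAA element, the interferon-stimulated response element, to which STAT and IRF factors bind. A pair of GAAA elements with 2 bases of any kind between them was searched on both strands in RefSeq windows from 250 bases before to 50 after the start of each gene (GRCh38.p14). Of 34 interferon-stimulated genes tested that had a window, 23 (67.6%) held a match, against 368 of 12417 tested genes (2.96%) and 996 of 27305 windows in all (3.65%). The share was 70% of 20 higher genes, 61.5% of 13 genes not called, and the match was present in EPSTI1, the 1 lower gene with a window. The following stretches, from 170 to 21 bases before the start and written 5′ to 3′ along the gene's own strand, show the matches in capitals for genes with large and opposite differences.
ISG15 (chr1:1013327-1013476, plus strand): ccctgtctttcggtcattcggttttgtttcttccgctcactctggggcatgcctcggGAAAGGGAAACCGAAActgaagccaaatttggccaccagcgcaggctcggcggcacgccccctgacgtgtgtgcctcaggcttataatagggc
IFI6 (chr1:27672213-27672362, minus strand): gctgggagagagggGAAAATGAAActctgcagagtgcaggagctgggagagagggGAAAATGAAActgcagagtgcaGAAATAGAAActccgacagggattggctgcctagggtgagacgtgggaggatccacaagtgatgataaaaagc
HERC5 (chr4:88456949-88457098, plus strand): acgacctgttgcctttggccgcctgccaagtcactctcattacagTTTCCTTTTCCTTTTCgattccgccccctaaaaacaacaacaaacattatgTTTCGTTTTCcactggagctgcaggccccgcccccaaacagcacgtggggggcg
EPSTI1 (chr13:42992262-42992411, minus strand): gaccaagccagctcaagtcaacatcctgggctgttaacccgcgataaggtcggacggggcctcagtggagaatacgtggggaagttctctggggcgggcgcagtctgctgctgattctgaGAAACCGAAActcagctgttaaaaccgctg
In ISG15 the capitals join 2 overlapping matches. HERC5 holds 3 matches, all on the opposite strand and therefore seen as TTTC repeats, 2 of them overlapping. A match is a description of the letters and not of binding, and genes with and without a difference held it.

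Antigen presentation by MHC class I, whose genes respond to interferon, was higher in HuCC-A1 for HLA-B and HLA-C. HLA-C was at 967, 2212, 902, 1192 and 919 CPM in HuCC-A1 and 54.2, 36.2, 67.4, 72.6 and 110 CPM in HuCC-T1 (18.2-fold higher, log2 fold change 4.19, SE 0.34, adjusted p = 1.91e-08). HLA-B was at 1001, 2131, 931, 1404 and 835 CPM and 122, 128, 278, 215 and 325 CPM, 5.9-fold higher (adjusted p = 2.77e-06). These genes are highly similar and polymorphic, so that reads counted for one may come from another and alleles may align unequally. The transactivator NLRC5 averaged 60.6 and 17 CPM and the peptide transporter subunit TAP1 185 and 47.6 CPM, both higher without overlap (adjusted p = 2.86e-05 and 4.69e-05). Of 33 tested genes of antigen processing and immune recognition, 19 were higher, 2 lower and 12 not called (63.6% called, against 61.4% of protein-coding genes). The 2 lower genes encode inhibitory ligands, CD47 with 87.9 against 362 CPM (adjusted p = 7.49e-08) and CD274, or PD-L1, with 12.3 against 24.3 CPM and overlapping tumors (adjusted p = 0.00862).

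Genes of hypoxia and glycolysis were lower in HuCC-A1, 26 of 40 tested against 3 higher and 11 not called (median log2 fold change -0.89). Of them 72.5% were called, against 61.4% of protein-coding genes. The lactate dehydrogenase gene LDHA was at 207, 281, 154, 170 and 225 CPM in HuCC-A1 and 1722, 1922, 1479, 1781 and 1287 CPM in HuCC-T1 (7.91-fold lower, adjusted p = 1.62e-09). Its counterpart LDHB, the heart-type subunit, was at 13.5, 12.1, 8.58, 6.76 and 10.4 CPM in HuCC-A1 and had 0 counts in all 5 HuCC-T1 tumors, at least 504-fold higher against the floor of 3 counts. Of its exonic bases, 33.4% are shared with another annotated gene on the same strand. Reads of both subunits were thus counted in HuCC-A1 and those of LDHA alone in HuCC-T1. The EGI-1 tumors also had 0 counts of LDHB, so its absence was not particular to HuCC-T1. PGK1 and GAPDH, enzymes of glycolysis, were 5.81-fold and 2.71-fold lower in HuCC-A1, and the glucose transporter SLC2A3 averaged 0.996 and 80.8 CPM, 79.5-fold lower and 275-fold without HuCC-A1 tumor 5. CA9, the carbonic anhydrase used as a hypoxia marker (38.5% of its exonic bases are overlapped on the opposite strand), had 9 counts in HuCC-A1 and was at 63.7, 35.7, 43.2, 82.6 and 21.2 CPM in HuCC-T1, 779-fold lower and 1652-fold without HuCC-A1 tumor 3. The hypoxia-inducible factor EPAS1 was 1 of the 3 higher genes, at 298 against 104 CPM (adjusted p = 5.96e-06).

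Serine synthesis and the ATF4 stress program were higher in HuCC-A1, with 18 of 28 tested genes higher, 4 lower and 6 not called (median log2 fold change 1.12). Of them 78.6% were called, against 61.4% of protein-coding genes. PSAT1, the aminotransferase in the middle of the pathway from glycolysis to serine, was at 49.8, 67.8, 54.7, 39.7 and 40.1 CPM in HuCC-A1 and had 3 counts in HuCC-T1, all in tumor 1. The count ratio was 2418-fold (95% interval 827 to 11730), covering counting error only. The enzymes before and after it, PHGDH and PSPH, were present in both models and 3.6-fold and 2.67-fold higher in HuCC-A1 (adjusted p = 1.91e-06 and 4.13e-05). The amino acid transporter SLC7A5 was at 274, 274, 252, 351 and 318 CPM and 16.5, 46.2, 38.9, 58.6 and 78.3 CPM, 6.16-fold higher without overlap.

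Of 41 tested genes of xenobiotic metabolism, 17 were higher in HuCC-A1, 9 lower and 15 not called (63.4% called, against 61.4% of protein-coding genes). ALDH3A1, an aldehyde dehydrogenase of stratified epithelia, was at 384, 276, 500, 635 and 583 CPM in HuCC-A1 and 49.1, 5.05, 8.38, 28.6 and 31.4 CPM in HuCC-T1 (19.4-fold higher, adjusted p = 1.13e-06). The carboxylesterase CES1 was at 31.7, 6.3, 50.1, 15.8 and 6.78 CPM in HuCC-A1, a wide spread, and had 0 counts in HuCC-T1, at least 1087-fold higher.

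Of 45 tested genes that recur as drivers of CCA, 12 were higher, 18 lower and 15 not called by their RNA. The share called, 66.7%, was near the 61.4% of all protein-coding genes tested. The cell cycle inhibitors CDKN2A and CDKN2B, tumor suppressors on chromosome 9, had 0 counts in all 5 HuCC-A1 tumors. In HuCC-T1 they were at 215, 144, 149, 181 and 198 CPM and 149, 222, 201, 208 and 238 CPM, at least 8837-fold and 10140-fold higher than in HuCC-A1. The kinase gene BRAF was 3.97-fold lower in HuCC-A1, the kinase gene ATM was at 19.4, 21.5, 18.8, 19.2 and 18.4 CPM against 103, 172, 161, 132 and 138 CPM (7.27-fold lower, adjusted p = 6.58e-10), and the p53 inhibitor MDM2 was 3.17-fold higher at 213 against 67 CPM (adjusted p = 1.31e-07). IDH1 and MYC were not called, with 74 and 73.4 CPM for IDH1 and 52.2 and 54.3 CPM for MYC. The cyclin gene CCND2 was at 92.3, 101, 99.4, 68.6 and 107 CPM in HuCC-A1 and 1.53, 0, 0.15, 0.106 and 0.156 CPM in HuCC-T1, 232-fold higher and 839-fold without HuCC-T1 tumor 1.

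CDKN2A and CDKN2B belonged to a run of neighboring genes without RNA. In HuCC-A1, 7 annotated genes within chr9:21892188-22012536 had 0 counts where HuCC-T1 had 57079 counts in all. The antisense gene CDKN2B-AS1, which extends beyond this range, had 33 counts in HuCC-A1 and 1744 in HuCC-T1, 52.2-fold lower and 273-fold without HuCC-A1 tumor 1. MTAP, an enzyme of adenosine salvage whose annotated span ends inside the range, was still expressed in HuCC-A1 at 25.4, 38.3, 27.3, 32.8 and 35.5 CPM against 186, 194, 184, 154 and 230 CPM in HuCC-T1, and it had 2 counts in EGI-1, the extrahepatic model of the series, which also had 0 counts of CDKN2A. KLHL9, farther out, was expressed in all models, at 67.7, 70.6 and 41.7 CPM.

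A longer stretch without RNA lay on chromosome 6. Beyond PERP, 13 annotated genes with at least 20 counts in the other models together, 10 of them protein-coding, had 0 counts in every HuCC-A1 tumor (chr6:138403531-140852924). The same genes had 22274 counts in HuCC-T1 and 61693 in EGI-1, and no other annotated gene inside the stretch had a count in HuCC-A1. HEBP2, a heme-binding protein, was at 37.5, 32.7, 31.3, 38.2 and 37.3 CPM in HuCC-T1, REPS1, an endocytosis adaptor, at 30.6, 33.5, 33.1, 32 and 30.9 CPM, and CITED2, a coregulator that restrains hypoxia-inducible factors, at 37.8, 23, 33.1, 34.4 and 22.5 CPM. These were at least 1764-fold, 1595-fold and 1503-fold higher than in HuCC-A1. PERP, the second gene before the stretch, was at 1203 CPM in HuCC-A1 and 571 CPM in HuCC-T1. Runs of at most 3 counts per gene in 1 model were otherwise short, counted over neighboring protein-coding genes with at least 100 counts over the tumors of some model. The chromosome 6 stretch, with 8 such genes in a row, was the longest of 7 in HuCC-A1, and the longest of 11 in HuCC-T1 had 4 genes. Counts of RNA do not show whether DNA is present, and these runs were chosen after their values were seen.

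**Figure D2:**
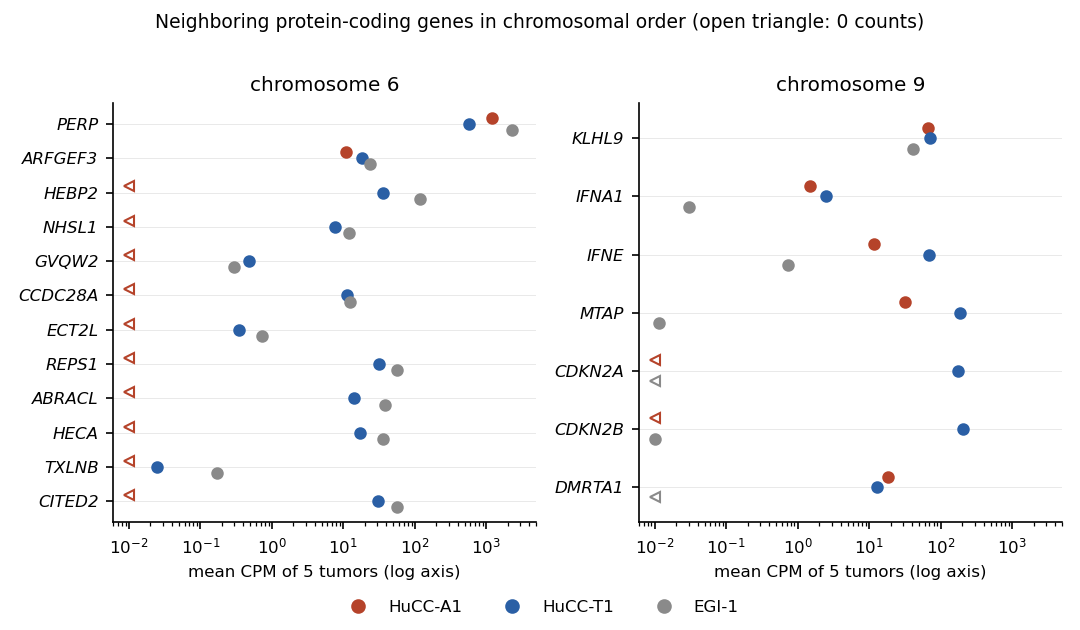
Points give the mean level over 5 tumors of neighboring protein-coding genes on chromosomes 6 and 9 in their order on the chromosome, in CPM on a log axis, for HuCC-A1 (red), HuCC-T1 (blue) and EGI-1 (gray), and open triangles mark 0 counts. From HEBP2 to CITED2 every gene was at 0 counts in HuCC-A1 and detected in both other models, whereas CDKN2A was at 0 counts in both HuCC-A1 and EGI-1.

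Cancer-testis antigens are genes of the germline whose promoters are normally methylated in other tissues. Of 37 listed, 9 passed the filter, of which 7 were higher in HuCC-A1, 1 lower and 1 not called, and the others had few counts in either model. The filter can admit a gene through 1 model alone, so a gene silent elsewhere enters through the model where it is high. The direction of such genes is not separate from the filter, and the counts only describe which genes were detected. MAGEA3 was at 89.2, 133, 105, 91.8 and 114 CPM in HuCC-A1 and had 10 counts over the HuCC-T1 tumors, 1489-fold higher and 3492-fold without HuCC-T1 tumor 5. Its near-copy MAGEA6 was at 110 CPM with 6 counts in HuCC-T1, 2455-fold higher and 4973-fold without HuCC-T1 tumor 1. Reads of the 2 genes may be split between them. MAGEA1 was at 43.5, 71.4, 32.9, 36.3 and 34.5 CPM against 1 count, and PAGE5 at 17.5, 21.4, 20.2, 12.3 and 19.9 CPM against 0 counts, at least 897-fold higher. The lower one of the 9 was the helicase gene DDX43, at 0.109 CPM in HuCC-A1 and 21.9, 31.5, 28.5, 25.9 and 23.2 CPM in HuCC-T1, 217-fold lower and 551-fold without HuCC-A1 tumor 3. The cancer-testis genes SPANXA1, SPANXA2 and SPANXD, neighbors on chromosome X that were outside the list and were noted after their values were seen, had 0 counts in HuCC-A1 and together 3274 counts in HuCC-T1.

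The promoter of MAGEA3 is shown because CpG methylation is the known switch of this family. The 200 bases before its RefSeq start (GRCh38.p14, chrX:152698594-152698793, plus strand) hold 13 CpG dinucleotides, in capitals.
MAGEA3: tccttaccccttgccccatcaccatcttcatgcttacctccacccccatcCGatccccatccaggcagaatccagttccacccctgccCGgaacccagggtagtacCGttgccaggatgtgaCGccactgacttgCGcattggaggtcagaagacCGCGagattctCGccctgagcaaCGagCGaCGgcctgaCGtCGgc
The windows of MAGEA3 and MAGEA6 were identical at 300 of 300 bases. Methylation was not measured in these files.

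HOX genes mark position along the body axis and keep their state in cell lines. Of 39 listed, 29 passed the filter, and all of these were called, 20 higher and 9 lower in HuCC-A1. Among protein-coding genes 61.4% were called. The filter can admit a gene through 1 model alone, and 5 of the 29 had 0 counts in HuCC-A1 or HuCC-T1. The share called is therefore not separate from the filter. Direction differed between the clusters. In HOXA 10 of 11 tested genes were higher and in HOXC 7 of 7, while in HOXB 7 of 10 were lower, as was the 1 tested HOXD gene. HOXA11 was at 7.44, 5.65, 7.38, 4.86 and 7.92 CPM in HuCC-A1 with 0 counts in HuCC-T1 (at least 327-fold), and HOXC10 at 4.32, 5.85, 5.94, 5.7 and 4.88 CPM with 2 counts in HuCC-T1. HOXB3 was at 13.1, 11.2, 20.8, 19.3 and 14.3 CPM in HuCC-A1 and 140, 135, 166, 178 and 147 CPM in HuCC-T1 (9.72-fold lower, adjusted p = 2.37e-10), and HOXB5 was 21.4-fold lower. At the far end of the same cluster HOXB13 was at 5.98, 3.75, 5.68, 2.83 and 3.56 CPM in HuCC-A1 and 0 counts in HuCC-T1.

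Imprinted genes are expressed from 1 parental copy. Of 28 listed, 20 passed the filter, of which 10 were higher, 9 lower and 1 not called. This was 95% called, against 56.3% of all genes tested. The filter can admit a gene through 1 model alone, and 2 of the 20 had 0 counts in HuCC-A1 or HuCC-T1, so this share is not separate from the filter. GRB10, an adaptor that restrains insulin signaling, was at 0.708, 0.30, 0.32, 0.386 and 0.399 CPM in HuCC-A1 and 65.9, 145, 125, 149 and 79.7 CPM in HuCC-T1 (265-fold lower, adjusted p = 8.54e-12). PEG10, a retrotransposon-derived gene on the same chromosome, was 4.3-fold higher at 415 against 96.5 CPM (adjusted p = 5.74e-06), and the noncoding RNA H19 averaged 375 and 159 CPM with overlap (adjusted p = 0.00532).

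Genes expressed in every tumor of 1 model and nearly absent from the other numbered 168 outside chromosome Y. With at least 1 CPM in each tumor of a model and at most 3 counts over the 5 tumors of the other, 96 genes were limited to HuCC-A1 (52 protein-coding) and 72 to HuCC-T1 (54 protein-coding). Of these, 48 and 33 had 0 counts in the other model. EGI-1 tumors had at least 1 CPM on average for 24 of the HuCC-A1 genes and 38 of the HuCC-T1 genes. The relaxin receptor RXFP1 was at 46.9, 94.9, 31.9, 60.1 and 30.4 CPM in HuCC-A1 and 0 counts in HuCC-T1, and the Wnt antagonist DACT2 averaged 22.8 CPM against 0 counts. SMO, the signal transducer of the Hedgehog pathway, was at 11.4, 7.25, 15.7, 12.4 and 21.1 CPM in HuCC-A1 with 1 count in HuCC-T1. In the other direction, the junction protein TMEM47 was at 224, 192, 307, 374 and 129 CPM in HuCC-T1 and 0 counts in HuCC-A1 (at least 12220-fold), the neutrophil chemokine CXCL5 at 68.8, 185, 249, 151 and 236 CPM and 0 counts, and the lymphangiogenic factor VEGFC at 84.1, 91.5, 64.3, 62.3 and 69.3 CPM with 3 counts.

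The promoters of these genes had a lower ratio of observed to expected CpG dinucleotides than those of all protein-coding genes tested. In RefSeq windows of 300 bases the median ratio of observed to expected CpG was 0.674 for 37 protein-coding genes limited to HuCC-A1 and 0.641 for 42 limited to HuCC-T1, against 0.817 for 11580 protein-coding genes tested. A ratio of at least 0.6 was found in 56.8% and 50% of them, against 76.9%. Windows were available for 37 of 52 and 42 of 54 of these genes. The reference genes include many expressed in both models. No comparison was made with other genes of restricted expression, so the lower ratio is not shown to be particular to these models.

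The balance of higher and lower genes differed between chromosomes. Among protein-coding genes, 57.7% of 496 tested on chromosome X were lower in HuCC-A1 and 11.1% higher, and chromosomes 10 and 8 had 52.1% and 51.1% lower. On chromosome 16, 54.2% of 690 genes were higher and 11.9% lower, and chromosomes 18, 19 and 1 had 50.3%, 45.4% and 43.4% higher. The median log2 fold change ran from -0.77 on X to 0.65 on chromosome 16, values far smaller than those of the genes described above. On chromosome 19 the 217 ZNF genes tested stood apart from this, with 67 higher and 41 lower (median log2 fold change 0.17), against 430 and 83 of the other 877 genes (median 0.57).

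Sharper shifts covered short stretches. In a running window of 25 neighboring protein-coding genes, the highest median log2 fold change, 1.96, was at chr18:670324-9960021, from ENOSF1 to VAPA, where 23 of 25 genes were higher and 0 lower. There VAPA, a membrane protein of the endoplasmic reticulum, was at 872, 1010, 987, 856 and 959 CPM in HuCC-A1 and 133, 138, 134, 116 and 99.9 CPM in HuCC-T1 (7.54-fold higher, adjusted p = 1.93e-11). Outside the window and farther toward the chromosome end, THOC1 and USP14 were lower in HuCC-A1, at 11.9 against 26.9 and 35.1 against 55.4 CPM. Genes between them and the window are not named here, so the place of the change is not shown. A window on chromosome 16 (chr16:67109958-67657569) had 24 higher and 0 lower genes with a median of 1.71.

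On chromosome 11 the stretch that holds the MMP cluster and ATM was lower almost throughout. From YAP1 to EXPH5 (chr11:102110461-108593738), 23 of 31 tested protein-coding genes were lower in HuCC-A1, 1 higher and 7 not called (median log2 fold change -2.09). The shift did not begin at its first gene. YAP1, BIRC2 and BIRC3 were not called (adjusted p = 0.574, 0.886 and 0.668), and the next, TMEM123, was at 354, 347, 353, 351 and 381 CPM in HuCC-A1 and 876, 1248, 1154, 1174 and 940 CPM in HuCC-T1 (3.02-fold lower). DYNC2H1, a motor protein of cilia within the stretch, was 14.2-fold lower. The longest unbroken run of called neighbors in 1 direction was 20 lower genes on chromosome 8 (chr8:55696424-65842322, TMEM68 to PDE7A), followed by 17 lower on chromosome 11 (MSANTD4 to FDX1) and 17 higher on chromosome 14 (HOMEZ to DCAF11). Copy number was not measured in these files, and its part in these shifts was not tested.

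**Figure D3:**
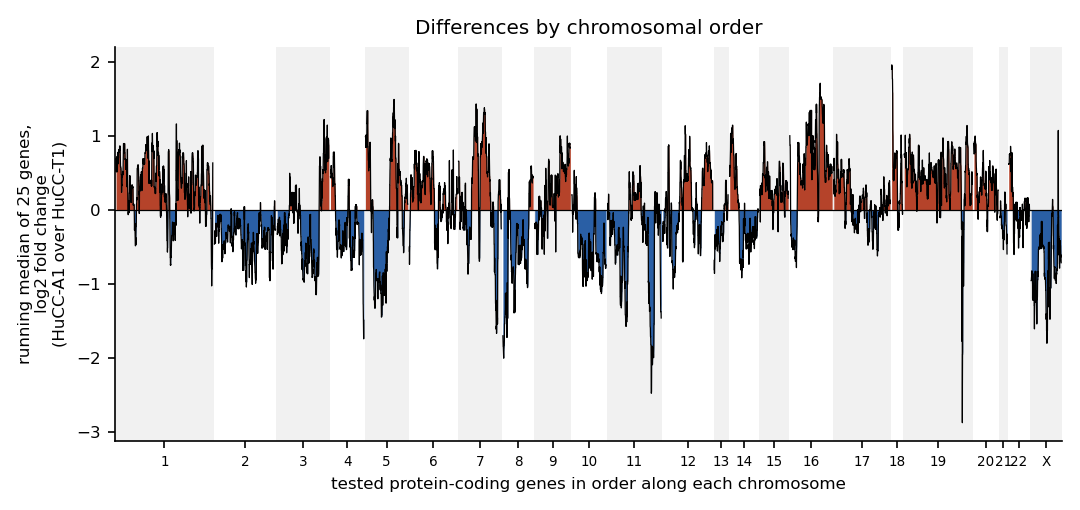
The line gives the running median over 25 neighboring tested protein-coding genes of the log2 fold change of HuCC-A1 over HuCC-T1, in gene order along chromosomes 1 to 22 and X. Chromosome 16 lies mostly above 0, X, 10 and 8 mostly below, the highest peak is at one end of chromosome 18 (1.96), and the lowest points are on chromosome 19 at the kallikrein genes (-2.87) and on chromosome 11 (-2.47).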

How the data were processed

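Raw RNA-seq counts per gene, deposited by the authors as 1 table of whole numbers, were used for 10 vehicle-treated CDX tumors, 5 of HuCC-A1 and 5 of HuCC-T1, and 5 of EGI-1 entered the fit. Per the labels' processing notes, CASAVA, HISAT2 2.0.5 and featureCounts 1.5.0-p3 had been used with GRCh38; the removal of mouse reads, the strand setting, the annotation release and any batch are not stated by those notes or the study's methods. All 58735 genes of the table were read and no column was left out. Genes were kept with edgeR's filterByExpr, scaled by TMM and tested by the quasi-likelihood F test (edgeR 4.0.16, R 4.3.3) in a model of 3 groups with 12 residual degrees of freedom and a common biological coefficient of variation of 0.338. P-values were adjusted over all 21019 genes tested by the Benjamini-Hochberg method. Levels are CPM computed here with TMM factors, without length scaling, so that levels are not compared between genes. Depth was 20001412 to 33585265 counts in HuCC-A1 and 26163778 to 33984103 in HuCC-T1. On simulated counts differences were planted in 100 genes at 2-fold and 100 at 4-fold, all above a minimum mean count, among 20385 genes run. At 2-fold 51 and at 4-fold 92 of the planted genes were recovered, and 2 of 20185 unchanged genes were called.

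A gene with 0 counts in a model was given a lower bound against 3 counts over its 5 tumors, and one with 1 to 3 counts the ratio of CPM with an exact 95% interval; both cover counting error only. DESeq2 1.42.0 and limma-voom 3.58.1 were alternatives. Replicate numbers did not pair the tumors, the correlation of same-numbered deviations being -0.03 to 0.105. Promoter windows came from RefSeq (GRCh38.p14), matched by symbol, and coordinates and shared exonic bases from GENCODE on GRCh38, matched by gene identifier.

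The members and lists were chosen with earlier results of these data known. Named genes were those the study names, the 15 protein-coding genes with the highest and the 15 with the lowest log2 fold change among those without overlap and at a mean level of 3 log2 CPM or more, the 3 largest and 1 opposite of each list, the 10 most abundant genes limited to each model and the ends of the 5 longest runs. Chosen outside this rule, after their values were seen, were ALDH3A1, ANO1, BIRC2, BIRC3, BRAF, CAPS, CCNO, CD274, CD44, CDKN2B-AS1, COL6A1, DTX4, DYNC2H1, EGFR, FOXJ1, FOXN4, GAPDH, GRB10, HES4, HEYL, HLA-B, HNF4A, HOXB3, HOXC10, HYDIN, IFI6, IFITM2, ISG15, JAG2, KLHL9, KRT19, KRT5, LDHA, LDHB, LGR5, MAML2, MCIDAS, MMP1, MMP10, MMP13, MMP14, MTAP, MUC1, MUC16, MUC5AC, MUC6, NKD1, NLRC5, NUMB, PERP, PGK1, PHGDH, PIGR, PSPH, RBPJ, ROPN1L, RSPH4A, SCGB3A1, SLPI, SMAD7, SPDEF, TAP1, TGFBI, THBS1, THOC1, TMEM123, TNC, TP63, USP14, VAPA, VIM, WFDC2 and WNT11. Windows, silent runs and the multiciliated and airway lists were likewise added after the data were seen. Genes of chromosome Y were left out of the genes limited to 1 model. A few genes counted in the lists are not reported by name here.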

Additional observations from a re-analysis of the deposited data

Results flagged for a closer look

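Among the genes named here, 1 tumor stood far from the other 4 of its model in 37 of 342 groups of 5 with at least 50 counts, by the gap to its nearest neighbor as a share of the range (Dixon's critical value 0.71). Chance flags about 1 in 20 groups, and the levels of different genes in a tumor are not independent. Values are CPM.

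HuCC-A1 tumor 2 was the highest of its model for 10 of these genes, CD274 at 24.95, CYR61 at 507, DACT2 at 52.0, HBEGF at 958, HLA-C at 2212, ICAM1 at 362, KRT7 at 1699, MAGEA1 at 71.4, SOX9 at 73.1 and TWIST1 at 45.4. HuCC-A1 tumor 5 was apart for BTG2 at 68.0, JAG2 at 443, NOTCH1 at 485, SLC2A3 at 3.71, TMEM123 at 381 and, on the low side, L1CAM at 0.0307. HuCC-A1 tumor 3 was apart for HES1 at 96.3, HOXB5 at 2.16 and POSTN at 0.720, tumor 1 for GRB10 at 0.708 and KLHL9 at 83.3, and tumor 4 for PERP at 1345.

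HuCC-T1 tumor 5 was the highest of its model for ISG15 at 263, KRT16 at 1578, KRT5 at 5278, MUC4 at 11.1, MYC at 121, NOTCH1 at 43.4 and NOTCH3 at 9.75. HuCC-T1 tumor 1 was apart for CCND2 at 1.53, GAPDH at 7201, POSTN at 3287, SPDEF at 74.4, VIM at 652 and, on the low side, ICAM1 at 9.40. HuCC-T1 tumor 4 was apart for COL1A1 at 85.0, on the low side, and EPAS1 at 123. Folds without the tumor stand beside the gene where leaving it out moved them by over 1.5 times.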

How the results depend on the processing

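The number of called genes, 11841, ranged from 11168 to 12301 on leaving out each tumor in turn (5455 to 6247 higher and 5485 to 6094 lower in HuCC-A1). Over the other alternatives, which were RLE factors, 2 other filters, the 10 tumors alone, DESeq2, limma-voom, a replicate block and, chosen after seeing the data, a fit without mitochondrial genes (11821 called), it ranged from 8215 to 13519 (4174 to 7057 higher and 4041 to 6464 lower). Only a test against a 2-fold change (glmTreat) moved it by over 1.5 times, to 4763 genes with 2417 higher and 2346 lower. With the replicate number as a block 11554 genes were called (6014 higher and 5540 lower), and since tumor numbers do not pair the tumors, no blocked value is given elsewhere. The share of higher genes among those called was 48.8 to 52.7%. No alternative turned the direction of a named gene called in the main fit or in that alternative. Changes of sign in genes called in neither were not counted. Counts per list stayed within 1.5 times in 1718 of 1862 cases. Of 192 named genes, 22 lost their call with glmTreat (adjusted p from 0.052 to 1), among them EPCAM (0.687), KRT7 (0.627), KRT19 (1), ITGB4 (0.242), ZEB1 (0.273), HES1 (1), ERBB2 (1), CD274 (0.645), PIGR (0.052), NUMB (0.13), PERP (0.357) and SERPINA1 (1). Apart from glmTreat, 1 named gene lost its call, SERPINA1, on leaving out any of 5 tumors, without a filter on low counts and with the 10 tumors alone (adjusted p up to 0.0743), and TP63 gained one with limma-voom and with the 10 tumors alone.

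In the simulation, 51 of 100 planted 2-fold differences were recovered. Far fewer genes were changed there than the 56.3% called in the data, which makes the adjustment of p-values stricter. The simulated recovery is therefore not a detection rate for this comparison. The absence of a call does not show that a gene was equal in both models. Both models compared are single lines, and vehicle duration is given for HuCC-A1 and not for HuCC-T1. Reads of host cells and of near-identical genes, such as MAGEA3 and MAGEA6 or the HLA genes, were not separated here.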

Other observations

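Genes of multiciliated cells, which bear many motile cilia in airway, oviduct and some ducts, formed a group outside the pathway lists. The list was written after its leading genes had been seen and is described without a test of its own. Of 30 tested members, 18 were higher in HuCC-A1, 0 lower and 12 not called (median log2 fold change 1.67), where 61.4% of protein-coding genes were called. Members nearly absent from HuCC-T1, such as CDC20B and FOXN4, could pass the filter through HuCC-A1 alone. The direction of such members is not separate from the filter. The summed level of the list ranged from 630 to 3066 CPM in HuCC-A1 and from 295 to 1156 CPM in HuCC-T1. The regulators of the early steps, which amplify centrioles, did not overlap between the models. MCIDAS was at 31.4, 27.4, 54.8, 46.4 and 32 CPM in HuCC-A1 and 3.84, 2.84, 2.58, 3.6 and 3.52 CPM in HuCC-T1 (11.7-fold higher, adjusted p = 7.83e-10 with edgeR's quasi-likelihood test), and CCNO at 124, 135, 292, 231 and 110 CPM and 16.4, 6.61, 11.6, 12 and 13.3 CPM (14.9-fold, adjusted p = 1.30e-08). CDC20B averaged 268 and 0.143 CPM, and the forkhead factor FOXN4 was at 16.5, 6.4, 29.4, 24.7 and 5.74 CPM against 0 counts, at least 813-fold higher. Within HuCC-A1, tumor 3 was the highest for each of these 4 genes.

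Structural genes of cilia were divided. RSPH4A, a radial spoke protein, and ROPN1L were 24.7-fold and 14.9-fold higher without overlap, while HYDIN and CAPS were not called (24.8 and 17 CPM, and 178 and 229 CPM). The late regulator FOXJ1 was present in both models, at 302, 203, 404, 312 and 107 CPM in HuCC-A1 and 200, 75.2, 64.7, 183 and 57.5 CPM in HuCC-T1 (2.29-fold higher with overlap, adjusted p = 0.0107). Genes of airway secretory cells were also listed after their values were seen, with the same limit of the filter. Of 13 tested, 8 were higher, 3 lower and 2 not called. Among them PIGR, the transporter of secreted antibodies, averaged 77.8 and 22.1 CPM and the secretoglobin SCGB3A1 26.1 and 1.88 CPM, both higher. The lower ones were MUC5B, WFDC2 and the secretory cell factor SPDEF, which averaged 4.19 and 44.8 CPM (10.6-fold lower, adjusted p = 2.84e-06).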
